A study of Mus musculus with 24 samples.

Results

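The platelet-derived growth factor (PDGF) family of the mouse consists of 4 ligand genes, Pdgfa, Pdgfb, Pdgfc and Pdgfd, and 2 receptor genes, Pdgfra and Pdgfrb. All 6 were found by symbol among the 55938 genes of the deposited table. Their transcripts were measured by bulk RNA sequencing in 24 libraries from 12 mouse gliomas, each sorted by fluorescence into glioma cells and into surrounding cells without fluorescence. Every tumour had been raised by gene transfer of PDGFB in utero into the ventricles of the embryonic telencephalon, so the surrounding cells also came from brains that carried such a tumour, and a tumour-free brain was not analysed here.

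Each population was sampled at 3 stages, with 4 tumours per stage. The asymptomatic animals carried tumours 3228A (day 33 after transduction), 3228B (day 33), 3228D (day 33) and 3229B (day 34). The early symptomatic ones carried 3108C (day 43), 3108D (day 43), 3109D (day 50) and 3145A (day 35). The late symptomatic ones carried 3054A (day 120), 3054B (day 175), 3054C (day 175) and 3057E (day 100). Values below follow these orders. The division of symptomatic tumours rests on the letters that end their labels, and stage, day and the first digits of the tumour code cannot be told apart. Fluorescence was green in all glioma samples but 3057E, which was labelled red. The species of the transferred PDGFB, the strain and the sex of the mice are not given in the sources used here, and whether transgene reads enter the mouse Pdgfb row was not tested.

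PDGF ligands act as dimers that bring together receptor tyrosine kinases at the cell surface. PDGF-A and PDGF-C act mainly through PDGFRα, PDGF-B binds both receptors, and PDGF-D acts mainly through PDGFRβ. In the brain PDGFRα marks oligodendrocyte progenitor cells (OPCs), which divide in response to PDGF-A from neurons and astrocytes, while PDGFRβ marks pericytes, the mural cells that endothelial PDGF-B recruits to vessels.

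Positions are those of GENCODE release M21 on the mouse genome GRCm38. Pdgfa lies on chromosome 5 from 138976014 to 138997370 on the minus strand, and Pdgfra lies on the same chromosome from 75152292 to 75198215 on the plus strand. Pdgfb lies on chromosome 15 from 79995874 to 80014977 on the minus strand. Pdgfc lies on chromosome 3 from 81036416 to 81214040, and Pdgfd on chromosome 9 from 6168584 to 6378850, both on the plus strand. Values are summed over the exons of a gene.

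RefSeq promoter windows of GRCm38.p6 were available for 4 of the 6 genes. The windows of Pdgfra and Pdgfd are shown because these 2 genes changed in opposite directions between glioma and surrounding cells. Each covers the 250 bases before the RefSeq start, on the plus strand, and capitals mark matches to any of 5 searched motifs.
Pdgfra, chr5:75152001-75152250: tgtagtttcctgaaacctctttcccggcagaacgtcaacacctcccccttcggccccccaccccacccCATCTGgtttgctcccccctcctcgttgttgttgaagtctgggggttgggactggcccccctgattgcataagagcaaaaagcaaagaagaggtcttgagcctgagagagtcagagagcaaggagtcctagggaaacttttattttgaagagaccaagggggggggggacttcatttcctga
Pdgfd, chr9:6168236-6168485: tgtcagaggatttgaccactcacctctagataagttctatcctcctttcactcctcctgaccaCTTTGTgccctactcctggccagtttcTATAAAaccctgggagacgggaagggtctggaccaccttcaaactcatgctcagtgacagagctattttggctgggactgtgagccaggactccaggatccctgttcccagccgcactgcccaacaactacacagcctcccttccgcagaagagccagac
The motifs were the GC box GGGCGG, the TATA box TATAAA, the box with the letters CCAAT, the E-box CANNTG and the SOX core ACAAAG, each searched on both strands. Pdgfra held 1 E-box and none of the others. Pdgfd held 1 TATA box and 1 SOX core, and the Pdgfc window held 1 SOX core. The 2 windows of Pdgfa held 1 and 2 GC boxes and no other match. Of all 32851 RefSeq windows of this length, 32.7% held a GC box, 12.4% a TATA box, 33.8% CCAAT, 66.2% an E-box and 16.5% a SOX core. The GC content was 54.4% for Pdgfra, 53.6% for Pdgfd, 50.8% for Pdgfc and 66.4% and 72.4% for Pdgfa, against a median of 52.4% over all windows. These matches describe the letters of the windows only.

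Library totals ranged from 9080000 to 15500000 counts. Levels are given as CPM, counts relative to library size, with library sizes scaled by TMM, the trimmed mean of M-values. Changes are log2 fold changes ± SE from edgeR's quasi-likelihood test, and an adjusted p under 0.05 was called. Replicates are separate tumours by their codes, and whether tumours of 1 code prefix share a litter is not given in the sources used here. Tumours 3108D and 3109D went against their codes: Xist stood at 1591 CPM in glioma cells and 2.12 CPM in surrounding cells of 3108D, but at 1.93 CPM in glioma cells and 1079 CPM in surrounding cells of 3109D. Both codes belong to the early symptomatic stage, so an exchange between them would leave the unpaired comparisons as they are. Counts and ratios by tumour below pair libraries by code, so for 3108D and 3109D they rest on a doubtful pairing.

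Glioma cells had more Pdgfra transcript and less Pdgfrb, Pdgfd and Pdgfa transcript than surrounding cells, while Pdgfb and Pdgfc did not pass the test. Averaged over the stages, Pdgfra was 2.13-fold higher in glioma cells, Pdgfrb 63.7-fold lower and Pdgfd 8.64-fold lower. Of the 6 genes, 1 was called higher and 3 lower, where 22% of the 18810 genes tested were called higher and 24.2% lower. In bulk samples fewer cells of a type and less RNA per cell cannot be told apart.

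**Figure D1:**
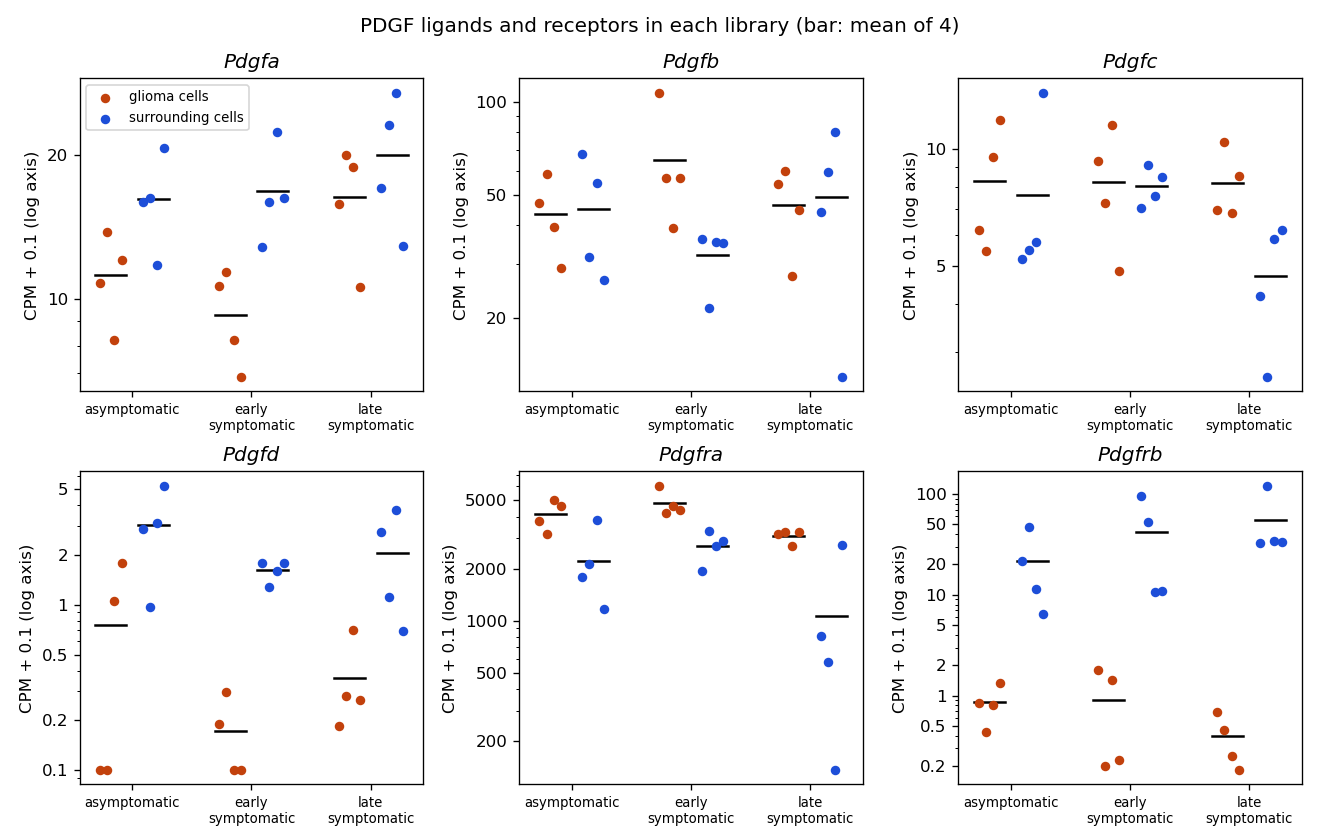
Level of each PDGF gene in every library, as CPM + 0.1 on a log axis, by stage, with glioma cells left of surrounding cells; points are libraries and bars the mean of 4. Pdgfrb is below 2 CPM in all glioma libraries and above 6 CPM in all surrounding libraries, while the points of Pdgfb and Pdgfc overlap between the populations at most stages.

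Pdgfb encodes the B chain, the ligand whose gene was transferred to raise the tumours, and its mouse row held reads in every library of both populations. In asymptomatic tumours Pdgfb had 47.2, 58.3, 39.3 and 29.0 CPM in glioma cells, against 68.0, 31.4, 54.5 and 26.4 CPM in surrounding cells. In early symptomatic tumours it had 107, 56.4, 38.9 and 56.6 CPM in glioma cells, against 35.9, 21.4, 35.2 and 34.8 CPM in surrounding cells. In late symptomatic tumours it had 54.1, 59.7, 27.2 and 44.7 CPM in glioma cells, against 44.0, 59.5, 80.1 and 12.8 CPM in surrounding cells. The ranges of the populations overlapped at the asymptomatic and late stages, and at the early stage all 4 glioma libraries lay above all 4 surrounding libraries. Over 12 libraries each, Pdgfb averaged 51.5 ± 20.7 CPM in glioma cells and 42.0 ± 19.9 CPM in surrounding cells (SD). Glioma cells had the higher value in 9 of 12 tumours. The change was 0.30 ± 0.24 on the log2 scale (edgeR adjusted p = 0.332). At the early stage it was 1.02 ± 0.42 with an adjusted p of 0.129, and without tumour 3057E it was called, with an adjusted p of 0.0467, where 17.3% of all genes were called in either direction.

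Pdgfa encodes the A chain, the main PDGF of OPC growth. In asymptomatic tumours Pdgfa had 10.7, 13.7, 8.12 and 12.0 CPM in glioma cells, against 15.8, 16.1, 11.7 and 20.6 CPM in surrounding cells. In early symptomatic tumours it had 10.5, 11.3, 8.13 and 6.78 CPM in glioma cells, against 12.7, 15.8, 22.2 and 16.1 CPM in surrounding cells. In late symptomatic tumours it had 15.7, 19.8, 18.8 and 10.5 CPM in glioma cells, against 16.9, 22.9, 26.8 and 12.8 CPM in surrounding cells. Glioma cells had the lower value in all 12 tumours, and the populations did not overlap at the early stage. The glioma to surrounding ratio ran from 0.367 in 3109D, whose pairing is in doubt, to 0.927 in 3054A. Pdgfa averaged 12.2 ± 4.12 CPM in glioma cells and 17.5 ± 4.64 CPM in surrounding cells (SD, n = 12 each). It fell by 0.56 ± 0.16 on the log2 scale in glioma cells (edgeR adjusted p = 0.00533). Within stages the change was −0.53 ± 0.27 in asymptomatic, −0.87 ± 0.27 in early and −0.29 ± 0.27 in late symptomatic tumours, and it was called at the early stage, with an adjusted p of 0.0354. That early call was lost without tumour 3108D, 3109D, 3145A or 3228A, with adjusted p of 0.0517, 0.256, 0.166 and 0.0556, and without both 3108D and 3109D, with an adjusted p of 0.361. It was also lost with no filter on low counts, at an adjusted p of 0.0702.

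Pdgfc encodes a ligand that is secreted latent and activated by proteolysis. In asymptomatic tumours Pdgfc had 6.09, 5.38, 9.48 and 11.8 CPM in glioma cells, against 5.11, 5.40, 5.66 and 13.9 CPM in surrounding cells. In early symptomatic tumours it had 9.26, 7.15, 11.4 and 4.76 CPM in glioma cells, against 6.95, 9.01, 7.48 and 8.37 CPM in surrounding cells. In late symptomatic tumours it had 6.88, 10.4, 6.75 and 8.44 CPM in glioma cells, against 4.08, 2.49, 5.77 and 6.09 CPM in surrounding cells. The populations overlapped at the asymptomatic and early stages and did not overlap at the late stage. Pdgfc averaged 8.15 ± 2.34 CPM in glioma cells and 6.69 ± 2.89 CPM in surrounding cells (SD, n = 12 each), with the higher value in glioma cells of 8 of 12 tumours. The change was 0.32 ± 0.21 over all stages (edgeR adjusted p = 0.216), and limma voom called it at 0.54 with an adjusted p of 0.0204, beside 57.2% of all genes in either direction. At the late stage it was 0.81 ± 0.36 with an adjusted p of 0.0899. It was called there with library totals in place of TMM, at 0.98 with an adjusted p of 0.0418, and by limma voom, at 1.19 with an adjusted p of 0.0236, beside 47.7% of all genes.

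Pdgfd encodes the other latent ligand and had the fewest reads of the 4. In asymptomatic tumours Pdgfd had 0, 0, 0.956 and 1.68 CPM in glioma cells, against 2.76, 0.874, 3.02 and 5.15 CPM in surrounding cells. In early symptomatic tumours it had 0.0890, 0.199, 0 and 0 CPM in glioma cells, against 1.68, 1.19, 1.5 and 1.69 CPM in surrounding cells. In late symptomatic tumours it had 0.0845, 0.179, 0.606 and 0.166 CPM in glioma cells, against 2.64, 1.02, 3.62 and 0.594 CPM in surrounding cells. Surrounding cells had the higher value in all 12 tumours, with no overlap at the early stage and an overlap of the ranges at the asymptomatic and late stages. These values rest on 35 counts in 4 glioma libraries against 143 in 4 surrounding libraries at the asymptomatic stage, 3 against 62 at the early stage and 13 against 81 at the late stage. Scaled by depth, the summed counts were 4.25-fold lower in glioma cells in asymptomatic (exact 95% interval 2.92 to 6.34), 24.8-fold lower in early (8.09 to 123) and 7.12-fold lower in late symptomatic tumours (3.94 to 13.9), intervals that cover counting error only.

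In glioma cells Pdgfd changed by −3.11 ± 0.60 over all stages (edgeR adjusted p = 0.000228). Within stages it was −2.13 ± 0.93 in asymptomatic (adjusted p = 0.141), −4.35 ± 1.18 in early (adjusted p = 0.0137) and −2.85 ± 1.01 in late symptomatic tumours (adjusted p = 0.0313). The early call was lost without tumour 3108C, 3109D or 3145A, with adjusted p of 0.0623, 0.0743 and 0.0825, and without both 3108D and 3109D, at 0.124. The late call was lost without 3054A, 3054B or 3054C, with adjusted p of 0.146, 0.0839 and 0.0637. At the asymptomatic stage Pdgfd was called with the tumour code as a block, at −2.85 with an adjusted p of 0.0423, and by limma voom.

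Pdgfra, whose product binds PDGF-A, PDGF-B and PDGF-C, was by mean the most abundant of the 6 transcripts per length of exon in both populations. In surrounding cells of 3054C Pdgfb lay above it, with 19.2 against 13.6 CPM per kilobase. In asymptomatic tumours Pdgfra had 3791, 3166, 5005 and 4614 CPM in glioma cells, against 1789, 2112, 3810 and 1160 CPM in surrounding cells. In early symptomatic tumours it had 6036, 4185, 4611 and 4371 CPM in glioma cells, against 1926, 3288, 2710 and 2876 CPM in surrounding cells. In late symptomatic tumours it had 3182, 3275, 2687 and 3234 CPM in glioma cells, against 814, 576, 136 and 2751 CPM in surrounding cells. Glioma cells had the higher value in all 12 tumours, from 1.18-fold in 3057E to 19.7-fold in 3054C. The ranges overlapped at the asymptomatic and late stages and not at the early stage. The share of all counts taken by Pdgfra was between 0.269% and 0.619% in glioma libraries and between 0.0102% and 0.402% in surrounding libraries.

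Pdgfra averaged 4013 ± 969 CPM in glioma cells and 1996 ± 1146 CPM in surrounding cells (SD, n = 12 each), and rose by 1.09 ± 0.30 on the log2 scale in glioma cells (edgeR adjusted p = 0.00541). Within stages the change was 0.90 ± 0.52 in asymptomatic (adjusted p = 0.276), 0.83 ± 0.52 in early (adjusted p = 0.349) and 1.53 ± 0.53 in late symptomatic tumours (adjusted p = 0.0284). The late call was lost without 3054A, 3054B or 3054C, with adjusted p of 0.119, 0.138 and 0.0589, without both 3108D and 3109D, at 0.0548, and with the 8 late libraries alone, at 0.195. It was also lost with library totals in place of TMM, at 0.0541, and with no filter on low counts, at 0.0529. The surrounding library of 3057E stood apart in this group, with 2751 CPM against 136 to 814 CPM in the other 3. Markers of OPCs stood with it: the 12 marker transcripts summed to 3158, 2122, 577 and 8620 CPM in the late surrounding libraries.

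Pdgfrb, whose product binds PDGF-B and PDGF-D, lies on chromosome 18 from 61045150 to 61085061 on the plus strand. No glioma library had more than 1.69 CPM of it. In asymptomatic tumours Pdgfrb had 0.752, 0.336, 0.717 and 1.24 CPM in glioma cells, against 21.6, 46.7, 11.3 and 6.32 CPM in surrounding cells. In early symptomatic tumours it had 1.69, 0.0994, 1.34 and 0.132 CPM in glioma cells, against 94.4, 52.6, 10.5 and 10.9 CPM in surrounding cells. In late symptomatic tumours it had 0.591, 0.358, 0.152 and 0.0828 CPM in glioma cells, against 32.7, 121, 34.3 and 33.3 CPM in surrounding cells. The populations did not overlap at any stage, and the highest glioma library, 3108C, lay below the lowest surrounding library, 3229B. The glioma values rest on 40, 39 and 14 counts per stage in 4 libraries, against 1073, 1560 and 2187 counts in surrounding cells. The summed level was 27.9-fold lower in glioma cells in asymptomatic (exact 95% interval 20.3 to 39.3), 47.9-fold lower in early (34.9 to 67.6) and 179-fold lower in late symptomatic tumours (106 to 327). Pdgfrb averaged 0.624 ± 0.543 CPM in glioma cells and 39.6 ± 35.4 CPM in surrounding cells (SD, n = 12 each).

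The change of Pdgfrb was −5.99 ± 0.55 over all stages (edgeR adjusted p = 1.97e-08). It was −4.79 ± 0.90 in asymptomatic (adjusted p = 0.000861), −5.68 ± 0.93 in early (adjusted p = 0.000194) and −7.51 ± 1.04 in late symptomatic tumours (adjusted p = 2.39e-05), and it kept its call at each stage under every alternative run. Among the 6 genes, 1 was called lower and 0 higher at the asymptomatic stage, where 12.5% of all genes tested were called lower and 1.3% higher. At the early stage 3 were called lower and 0 higher, beside 12.4% lower and 1.06% higher over all genes. At the late stage 2 were called lower and 1 higher, beside 19.9% lower and 15.4% higher. Pdgfra had an unadjusted p above 0.05 at the asymptomatic and early stages, and limma voom called it at the asymptomatic stage, at 0.84 with an adjusted p of 0.0414, beside 28.9% of all genes in either direction.

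**Figure D2:**
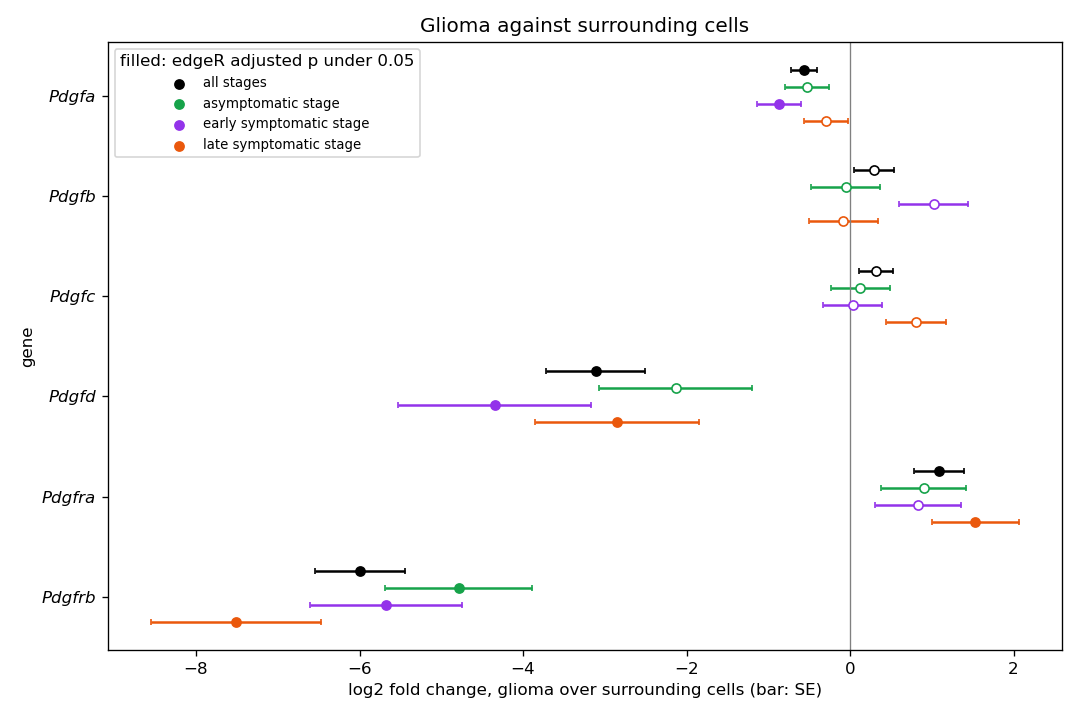
Log2 fold change of glioma over surrounding cells for each PDGF gene, over all stages and within each stage, with SE as bars; filled points have an edgeR adjusted p under 0.05. Pdgfrb is filled at −5.99 over all stages and at each stage, and Pdgfb and Pdgfc are open throughout.

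Levels of different genes were compared as CPM per kilobase of exon. Pdgfra averaged 400 ± 96.6 CPM per kilobase in glioma cells and 199 ± 114 in surrounding cells (SD, n = 12 each). By this measure it held ranks 33 to 113 among all genes in glioma libraries and ranks 54 to 3843 in surrounding libraries. Pdgfb came next in glioma cells, with 12.4 ± 4.98 CPM per kilobase, against 10.1 ± 4.78 in surrounding cells. Pdgfrb had 0.114 ± 0.0992 CPM per kilobase in glioma cells, near the 0.105 ± 0.163 of Pdgfd, against 7.23 ± 6.47 in surrounding cells, where Pdgfd had 0.680 ± 0.424. Pdgfa lay at 3.90 ± 1.32 and Pdgfc at 1.60 ± 0.460 CPM per kilobase in glioma cells, against 5.62 ± 1.49 and 1.31 ± 0.568 in surrounding cells.

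The summed level of the 4 ligands averaged 17.99 ± 4.94 CPM per kilobase in glioma cells and 17.7 ± 5.63 in surrounding cells (SD, n = 12 each). Pdgfb made up 67.3 ± 10.6% of the sum in glioma cells and 54.6 ± 11.9% in surrounding cells, and Pdgfa 22.5 ± 8.28% in glioma cells and 33.2 ± 8.18% in surrounding cells. Pdgfc took 9.48 ± 3.93% in glioma cells and 8.38 ± 4.52% in surrounding cells, and Pdgfd 0.712 ± 1.20% in glioma cells and 3.77 ± 2.08% in surrounding cells. With the longest transcript as the length, Pdgfb made up 66.3% in glioma cells and 53.9% in surrounding cells. The Pdgfb share in glioma cells averaged 65.1%, 75.8% and 61.1% in asymptomatic, early and late symptomatic tumours, against 57.5%, 50.6% and 55.8% in surrounding cells. These sums and shares are descriptions with no test. They rest on the mouse Pdgfb row, and whether reads of the transferred PDGFB enter that row was not tested. The total PDGF ligand transcript of glioma cells may therefore be higher than these sums.

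Among the receptors, Pdgfrb made up between 0.00435% and 0.0532% of the summed CPM per kilobase in glioma libraries and between 0.540% and 31.6% in surrounding libraries. In surrounding cells the Pdgfrb share was 2.16%, 3.89%, 0.540% and 0.987% in asymptomatic, 8.23%, 2.84%, 0.702% and 0.686% in early and 6.85%, 27.7%, 31.6% and 2.16% in late symptomatic tumours. The highest shares thus came from late tumours 3054B and 3054C, while those of 3054A and 3057E fell within the range of the earlier stages. Pdgfra stood at 23.3 ± 7.13 times the summed ligand level in glioma cells and at 13.5 ± 9.71 times in surrounding cells (SD, n = 12 each), with ranges from 14.3 to 35.1 in glioma libraries and from 0.451 to 32.1 in surrounding libraries. Transferred PDGFB may be missing from this ligand level too.

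**Figure D3:**
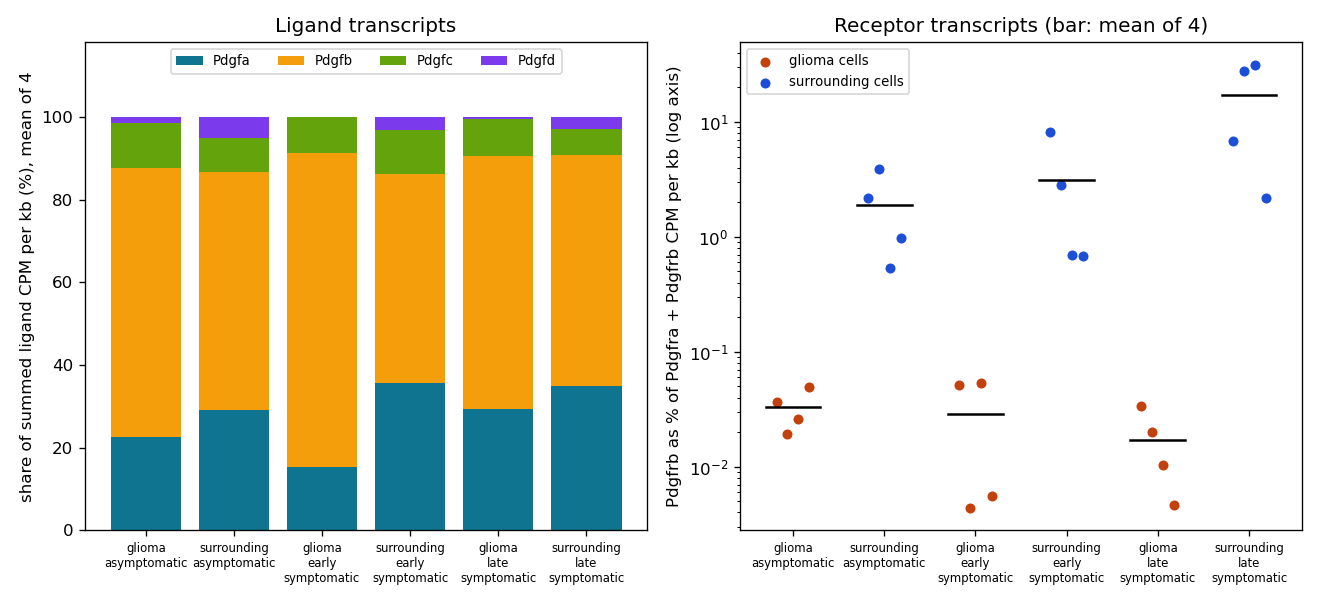
Left, share of each ligand in the summed ligand CPM per kilobase, as the mean of 4 libraries; right, Pdgfrb as a percent of Pdgfra plus Pdgfrb CPM per kilobase in each library, on a log axis, with bars for means. Pdgfb takes 75.8% of the ligand sum in early symptomatic glioma cells, and every glioma library lies below 0.0532% or at it for Pdgfrb.

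By group means, Pdgfra was highest in early symptomatic glioma cells, at 4801 ± 842 CPM, and lowest in late symptomatic surrounding cells, at 1069 ± 1156 CPM (SD, n = 4 each). Pdgfa was highest in late symptomatic surrounding cells, at 19.9 ± 6.24 CPM, and lowest in early symptomatic glioma cells, at 9.18 ± 2.10 CPM. Pdgfb was highest in early symptomatic glioma cells, at 64.7 ± 29.4 CPM, and lowest in surrounding cells of the same stage, at 31.8 ± 6.97 CPM. Pdgfc lay between 8.11 ± 1.69 and 8.19 ± 3.01 CPM in the 3 glioma groups and reached its lowest mean in late symptomatic surrounding cells, at 4.61 ± 1.67 CPM. Pdgfd was highest in asymptomatic surrounding cells, at 2.95 ± 1.75 CPM, and lowest in early symptomatic glioma cells, at 0.0719 ± 0.0944 CPM. Pdgfrb averaged 0.761 ± 0.371, 0.816 ± 0.821 and 0.296 ± 0.229 CPM in asymptomatic, early and late symptomatic glioma cells, against 21.5 ± 17.97, 42.1 ± 40.1 and 55.3 ± 43.6 CPM in surrounding cells. In the order of the 6 group means of each gene, neighbouring groups overlapped in range at every step but 1, that between Pdgfrb in early symptomatic glioma cells and in asymptomatic surrounding cells. The share of all genes whose ranges separate is not given here. These overlaps, and those by stage above, are therefore descriptions only.

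No member of the family was called by edgeR between stages within a population. Between late and early symptomatic glioma cells 0 of the 4 genes that passed the filter on low counts were called by edgeR, beside 0.273% of all 16494 genes tested. Pdgfa averaged 16.2 ± 4.18 CPM in late and 9.18 ± 2.10 CPM in early symptomatic glioma cells (SD, n = 4 each), a change of 0.82 ± 0.26 (adjusted p = 0.132). Pdgfra averaged 3095 ± 275 CPM in late and 4801 ± 842 CPM in early symptomatic glioma cells, a change of −0.63 ± 0.19 (adjusted p = 0.132). All 4 late glioma libraries lay below all 4 early ones for Pdgfra, while for Pdgfa late tumour 3057E, at 10.5 CPM, lay within the early range. Both genes had an unadjusted p under 0.05. Without 3057E both were called, Pdgfa at 0.96 with an adjusted p of 0.0172 and Pdgfra at −0.67 with an adjusted p of 0.0353, where 17.2% of all genes tested were called. The microglia markers of 3057E summed to 1679 CPM in glioma cells, against 112 to 132 CPM in the other late glioma libraries. In surrounding cells of 3057E they summed to 1527 CPM, below its glioma cells. The part of these markers was not tested. DESeq2 called Pdgfra, at −0.63 with an adjusted p of 0.0236, beside 6.05% of all genes, and limma voom called both, beside 15.8%. Pdgfb changed by −0.47 ± 0.32 and Pdgfc by 0.00 ± 0.33, neither of them called.

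Between late symptomatic and asymptomatic glioma cells 0 of 4 were called by edgeR, beside 0.158% of all genes. Pdgfa had the smallest p, with a change of 0.55 ± 0.25 (adjusted p = 0.336), the 1 gene of the 4 with an unadjusted p under 0.05. DESeq2 called 0 there and limma voom called Pdgfa, at 0.71 with an adjusted p of 0.0266, beside 3.53% and 18.1% of all genes. Between early symptomatic and asymptomatic glioma cells edgeR, DESeq2 and limma voom each called 0 of 4, beside 0% of all genes called by edgeR. By edgeR 0 had an unadjusted p under 0.05. The shares of all genes that DESeq2 and limma voom called in this comparison are not given here. The largest change there was 0.58 ± 0.32 for Pdgfb. Pdgfd and Pdgfrb had too few counts to enter the fits of glioma cells alone.

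In surrounding cells 0 of 6 members were called by edgeR between late and early symptomatic tumours, beside 1.48% of all 17616 genes tested, and 0 had an unadjusted p under 0.05. Pdgfra averaged 1069 ± 1156 CPM in late and 2700 ± 571 CPM in early symptomatic tumours (SD, n = 4 each), a change of −1.36 ± 0.69 (adjusted p = 0.341). Late libraries 3054A, 3054B and 3054C lay below every early library, and 3057E lay within their range. Without 3057E the change was −2.44 with an adjusted p of 0.0154, where 18.9% of all genes were called. Limma voom called Pdgfra and Pdgfc, beside 29.5% of all genes, and DESeq2 called 0 members, beside 6.69%. Pdgfc averaged 4.61 ± 1.67 CPM in late and 7.95 ± 0.918 CPM in early symptomatic tumours, a change of −0.81 ± 0.40 (adjusted p = 0.329), and its late libraries all lay below its early ones.

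Between late symptomatic and asymptomatic surrounding cells edgeR called 0 of 6 members, beside 0% of all genes, and 0 had an unadjusted p under 0.05. Pdgfra changed by −1.04 ± 0.68 and Pdgfrb by 1.35 ± 0.79. Without 3057E Pdgfra was called at −2.12 with an adjusted p of 0.0290, where 16.4% of all genes were called. Limma voom called Pdgfra, beside 23.3% of all genes, and DESeq2 called 0 members, beside 5.83%. Between early symptomatic and asymptomatic surrounding cells edgeR, DESeq2 and limma voom each called 0 of 6, beside 0% of all genes called by edgeR. By edgeR 0 had an unadjusted p under 0.05. The shares of all genes that DESeq2 and limma voom called in this comparison are not given here.

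Whether the stage effect differed between the populations was tested as an interaction. By edgeR 0 of 6 members were called between late and early symptomatic tumours, beside 0% of all genes, and 0 had an unadjusted p under 0.05. Between late symptomatic and asymptomatic tumours 0 of 6 were called, beside 0% of all genes, and Pdgfrb had the 1 unadjusted p under 0.05, at −2.72 ± 1.27 (adjusted p = 0.586). Between early symptomatic and asymptomatic tumours 0 of 6 were called, beside 0% of all genes, with 0 at an unadjusted p under 0.05. DESeq2 called 0 members in all 3 interactions. The share of all genes that it called there is not given here, so this count is not read as a result. Limma voom called Pdgfra in both late ones, at 1.67 ± 0.48 against the early stage (adjusted p = 0.0410) and at 1.52 ± 0.46 against the asymptomatic stage (adjusted p = 0.0492), where edgeR gave 0.70 ± 0.73 and 0.63 ± 0.73. Over all genes limma voom called 5.92% and 6.84% in these interactions. The 3 stage comparisons share libraries, so their values are not separate evidence.

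Markers of 9 cell types were read beside the family. Their counts below stand beside 22% of all genes called higher and 24.2% called lower in glioma cells over all stages. Of 12 OPC markers that do not include Pdgfra, 9 were higher and 0 lower in glioma cells over all stages, among them Sox10 and Olig2, transcription factors of the lineage, and Cspg4, the NG2 proteoglycan. The median change of the list was 1.01, beside 0.06 over all genes tested, and the summed level ranged from 8968 to 14612 CPM in glioma libraries and from 577 to 10177 CPM in surrounding libraries. Of 10 tested pericyte and smooth muscle markers that do not include Pdgfrb, 9 were lower in glioma cells and 0 higher, with a median of −2.85 and sums from 4.01 to 40.2 CPM in glioma libraries and from 51.8 to 344 CPM in surrounding libraries. The pericyte genes Vtn and Anpep, 2 of this list, reached at most 3.36 and 0.662 CPM in any glioma library. Other markers of the list were present there. In glioma cells of 3229B, which had the sum of 40.2 CPM, 0 of the 12 markers had no reads. Cnn1 and Higd1b, also of this list of 12, were at or near 0 in both populations. All 7 tested fibroblast markers of 8 listed were lower in glioma cells, with a median of −6.13 and sums from 1.51 to 13.5 CPM in glioma libraries and from 34.5 to 1894 CPM in surrounding libraries. All 10 endothelial markers were lower too, with a median of −4.58 and sums from 1.32 to 121 CPM in glioma libraries and from 80.5 to 290 CPM in surrounding libraries. All 8 microglia markers were lower, with a median of −4.80 and sums from 112 to 1679 CPM in glioma libraries and from 1527 to 12034 CPM in surrounding libraries. The microglia sum was lower in glioma cells of 11 of 12 tumours. In 3057E it was 1679 CPM in glioma cells and 1527 CPM in surrounding cells. All 8 mature oligodendrocyte markers were lower, with a median of −3.45 and sums from 260.2 to 3208 CPM in glioma libraries and from 3150.0 to 30432 CPM in surrounding libraries, and the sum was lower in glioma cells of all 12 tumours. All 8 T and NK cell markers were lower, with a median of −4.85 and sums from 0.447 to 2.38 CPM in glioma libraries and from 2.38 to 44.4 CPM in surrounding libraries. Of 8 astrocyte markers, 4 were lower and 0 higher, with a median of −1.30 and sums that averaged 645 ± 130 CPM in glioma cells and 821 ± 547 CPM in surrounding cells (SD, n = 12 each), lower in glioma cells of 7 of 12 tumours. Of 8 neuron markers, 1 was higher and 0 lower, with a median of −0.60 and sums that averaged 165 ± 66.7 CPM in glioma cells and 146 ± 132 CPM in surrounding cells, lower in glioma cells of 3 of 12 tumours. The part of these cell types in the changes of Pdgfra, Pdgfrb, Pdgfd and Pdgfa was not tested.

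**Figure D4:**
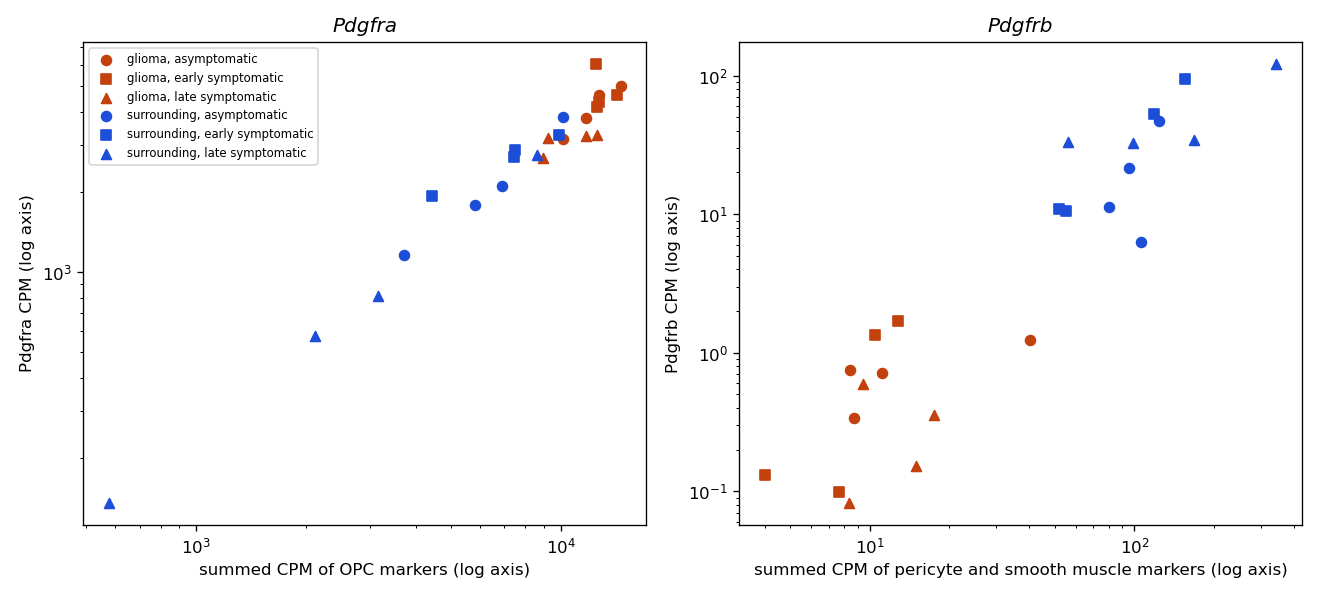
Pdgfra against the summed CPM of 12 OPC markers (left) and Pdgfrb against the summed CPM of 12 pericyte and smooth muscle markers (right), both axes log, 1 point per library, shaped by stage. The lowest Pdgfra value, 136 CPM, is in the library with the lowest OPC sum, 577 CPM. The highest Pdgfrb value, 121 CPM, is in surrounding cells of 3054B, with the highest mural sum, 344 CPM. That library also had the highest sum of fibroblast markers, 1894 CPM, which is not drawn. The next Pdgfrb value, 94.4 CPM in surrounding cells of 3108C, came with a fibroblast sum of 1868 CPM. The part of mural cells and fibroblasts in Pdgfrb was not tested. Surrounding cells of 3054C, with the next mural sum, 168 CPM, had 34.3 CPM of Pdgfrb.

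Genes with the most similar profile were ranked by Pearson's r of log2(CPM + 1) over the 24 libraries among 10347 genes, a description in which libraries share their population. For Pdgfra these were Lsamp at 0.990, Opcml at 0.987, Ptprz1 at 0.985 and Erbb4 at 0.983, where Lsamp and Opcml encode adhesion molecules and Ptprz1 a receptor phosphatase of glial progenitors. For Pdgfrb they were Lamb1 at 0.989, Serpinh1 at 0.979, Col3a1 at 0.977 and Nid1 at 0.977, genes of basement membrane, collagen and collagen folding. For Pdgfd they were Glul at 0.877, Cst3 at 0.875, Pltp at 0.865 and Ighm at 0.862.

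The profiles closest to the other ligands were less close in value. For Pdgfa they were Acaa2 at 0.862, Ctnna1 at 0.859, Id3 at 0.850 and Pdk1 at 0.834. For Pdgfc they were Aktip at 0.746, Dcun1d4 at 0.735, Ramp2 at 0.730 and Ndrg2 at 0.727, and for Pdgfb they included Rnf115 at 0.712, Dffa at 0.667 and Atxn2l at 0.631. Over the 12 glioma libraries alone, Pdgfra was closest to Crim1 at 0.957, Lsamp at 0.952, Cuedc1 at 0.946 and Adam9 at 0.942. Pdgfa was then closest to Pfkfb3 at 0.933, a glycolytic regulator, Ctnna1 at 0.923, Anxa2 at 0.918 and S100a11 at 0.912. Pdgfb was closest to Mark3 at 0.880, Qrich1 at 0.876, Phf14 at 0.874 and Nom1 at 0.866.

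Genes that process or hold PDGF ligands were mostly lower in glioma cells than in surrounding cells. The populations also differed in cell types. Microglia marker sums averaged 348 CPM in glioma cells and 7637 CPM in surrounding cells, and endothelial sums 27.1 and 193 CPM. The part of cell types in the changes of this list and of the lists below was not tested. Of 11 such genes, 7 fell, 1 rose and 3 did not pass the test, where 24.2% of all genes fell and 22% rose. The median change was −2.18, beside 0.06 over all genes. This list and the lists below were chosen with earlier results of these data known, so their counts are descriptions only. Plau, the urokinase that can activate PDGF-D, fell by 4.67 ± 0.51 on the log2 scale (edgeR adjusted p = 1.77e-07). Sparc, a matrix protein that binds PDGF-B, fell by 3.37 ± 0.30 (adjusted p = 1.41e-08), and the co-receptor gene Nrp1 fell by 2.97 ± 0.28 (adjusted p = 2.63e-08). Pcsk6, a proprotein convertase, rose by 0.79 ± 0.22 (adjusted p = 0.00545). Plat, the tissue plasminogen activator that cleaves PDGF-C, had a change of −0.12 ± 0.17 and was not called. By stage 4, 6 and 7 of the 11 were lower in glioma cells in asymptomatic, early and late symptomatic tumours, where 12.5%, 12.4% and 19.9% of all genes were.

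Of 24 tested adaptors and enzymes that bind the activated receptors, 10 rose and 5 fell in glioma cells, with a median of 0.17. The share that fell was near the 24.2% of all genes, and 22% of all genes rose. The adaptor Shc1 fell by 1.84 ± 0.17 (adjusted p = 2.31e-08), while its relative Shc3 rose by 1.12 ± 0.25 (adjusted p = 0.000861). Stat5a fell by 1.96 ± 0.25 (adjusted p = 1.54e-06) and Grb2, which links receptors to RAS, fell by 0.85 ± 0.13 (adjusted p = 1.3e-05). The regulatory subunits of PI3 kinase Pik3r1 and Pik3r2 rose by 0.74 ± 0.17 and 0.48 ± 0.10 (adjusted p = 0.00154 and 0.000657). Shc1 was also the 1 member of the list called between late and early symptomatic glioma cells, higher in late ones by 1.11 ± 0.19 (adjusted p = 0.0379).

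Of 17 genes of the RAS, ERK and PI3 kinase cascades, 6 rose and 4 fell, with a median of 0.19, where 22% of all genes rose and 24.2% fell, so the share that fell was at the background. The kinase gene Mapk3, which encodes ERK1, fell by 1.72 ± 0.17 (adjusted p = 3.29e-08). Rptor and Map2k1 fell by 0.44 ± 0.11 and 0.48 ± 0.12 (adjusted p = 0.0019 and 0.00273). Without tumours 3108D and 3109D 3 of these 17 genes were called higher, and with library totals in place of TMM 9 were. Library totals also moved the median change and the share of higher calls upward over all genes. The share of all genes called higher in these settings is not given here, so the 2 counts are not read as results about this list.

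Of 18 negative regulators of receptor signalling, 8 rose and 5 fell, with a median of 0.18, where 22% of all genes rose and 24.2% fell, so the share that fell was near the background. Those that rose included Spry2 by 1.12 ± 0.22 (adjusted p = 0.00027), Spred2 by 0.73 ± 0.13 (adjusted p = 7.65e-05) and Spred1 by 0.63 ± 0.13 (adjusted p = 0.000384), inhibitors of the RAS to ERK pathway. The phosphatase genes Ptprj and Ptpn1 fell by 1.09 ± 0.15 and 1.10 ± 0.16 (adjusted p = 4.76e-06 and 1.04e-05), and Socs3 fell by 1.79 ± 0.35 (adjusted p = 0.000245).

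Receptors and ligands of related families (KIT, CSF1R, FLT3 and the VEGF receptors) were lower or not called. Of 14 tested, 9 fell and 0 rose in glioma cells, beside 24.2% and 22% of all genes, with a median of −1.31, and of the 9, Csf1r and Flt1 are also among the microglia and endothelial markers. Flt3 fell by 6.20 ± 0.46 (adjusted p = 1.58e-09), Flt4 by 3.46 ± 0.34 (adjusted p = 4.74e-08) and Kdr by 2.51 ± 0.25 (adjusted p = 3.91e-08). Kit, the receptor gene next to Pdgfra, had a change of 0.45 ± 0.23 and was not called (adjusted p = 0.116). In surrounding cells Flt3 was higher in late than in early symptomatic tumours by 3.72 ± 0.56 (adjusted p = 0.0168).

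The 10 genes around Pdgfra on chromosome 5 were read because human gliomas can gain the matching segment as a block. In glioma cells 6 of them rose and 2 fell, beside 22% and 24.2% of all genes, with a median of 0.46. These are RNA levels, and whether this segment was gained in these tumours was not tested. Fip1l1, from 74535449 to 74598800, rose by 1.11 ± 0.15 (adjusted p = 2.99e-06) and Scfd2, from 74204816 to 74531759, by 1.22 ± 0.16 (adjusted p = 2.86e-06). The end of Fip1l1 overlaps Lnx1, so reads there could be split between them. The homeobox gene Gsx2, from 75075601 to 75077893, rose by 1.66 ± 0.42 (adjusted p = 0.00253). On the other side Kdr, from 75932827 to 75978458, and Srd5a3 fell, by 2.51 ± 0.25 and 0.76 ± 0.16 (adjusted p = 3.91e-08 and 0.000495), and Kit, from 75574916 to 75656722, lies between them and Pdgfra.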

How the data were processed

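RNA of 12 mouse tumours was measured in 24 libraries, 4 per population and stage. Per the labels' protocols, cells were dissociated from microdissected tumours and sorted, and polyA RNA was sequenced with the CORALL kit. For each gene the deposited table holds expected counts, and the submitters' processing notes name STAR 2.7.5c, RSEM 1.3.1 and GRCm38. Annotation release, strand setting and use of molecular identifiers are not given in the sources used here, so antisense and overlapping genes are uncertain. Libraries held between 13.2% and 16.5% of values with decimals. Rounding to whole numbers moved no total by more than 95.2 counts. No libraries of a group were copies (lowest chi-square per degree of freedom 22.2 over 36 pairs). Of the identifiers, 98.6% matched GENCODE M21, the source of coordinates and exon lengths.

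The rounded counts entered edgeR 4.0.16 under R 4.3.3 (TMM, filterByExpr with a minimum of 10, robust quasi-likelihood test, group means as the terms), and p-values were adjusted over every tested gene (Benjamini-Hochberg). SEs are derived from the F statistic. Populations and interactions were fitted in all 24 libraries, stages in the 12 of a population. The script was tested on simulated data. Exact intervals of count ratios cover counting error only. Members and gene lists were chosen with earlier results of these data known. Named genes are all 6 members and, per list and comparison, up to 3 called genes in each direction with the smallest p. Most similar genes are the 4 with the highest r among genes with a symbol of their own whose log2(CPM + 1) averaged 3 or more. Plat, Kit and other genes outside this rule were added after their values were seen. Some genes that the rule names are not reported here. Of the list symbols, 1 had 2 rows (Pik3r2), and the row with the higher total was used.

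Alternatives were DESeq2 1.42.0, limma voom (limma 3.58.1) with sample weights, DESeq2 size factors, library totals, no filter, a minimum of 50, no robust spread, single stages, each tumour left out, tumours 3108D and 3109D left out, and the tumour code as a block, also with those codes exchanged. Both libraries of a code come from 1 tumour by the labels. Their deviations from the group means correlated at r from 0.0844 to 0.414 in 10 tumours, and at 0.0370 and −0.00186 in 3108D and 3109D. Tables and figures used Python 3.11.15, pandas 2.3.3 and SciPy 1.17.1.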

Additional observations from a re-analysis of the deposited data

Results flagged for a closer look

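In 4 of 36 groups of 4 libraries, 1 library stood apart from the others by more than Dixon's 95% critical value for the gap over the range, and chance gives about 1 in 20 groups. Pdgfrb was 121 CPM in late symptomatic surrounding cells of 3054B, with a gap of 0.982 of the range. Pdgfc was 13.9 CPM in asymptomatic surrounding cells of 3229B, with a gap of 0.937. In that library mature oligodendrocyte markers summed to 30432 CPM, against 3150.0 to 5959 CPM in the other 3 of its group, astrocyte markers to 2324 CPM, against 579 to 942 CPM, and neuron markers to 532 CPM, against 71.8 to 120.0 CPM, and their part was not tested. Pdgfb was 21.4 CPM in early symptomatic surrounding cells of 3108D, the lowest of its group, with a gap of 0.922. Pdgfra was 2687 CPM in late symptomatic glioma cells of 3054C, the lowest of its group, with a gap of 0.843.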

How the results depend on the processing

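Of 72 pairs of a gene and a comparison, the 47 with a change of at least 1 SE or over all stages were followed, which gave 1022 alternative values; 980 kept direction and call, 20 lost the call, 21 gained it and 1 reversed (Pdgfrb in surrounding cells, early symptomatic minus asymptomatic, −0.18 by limma voom, not called either way). Over all stages the 4 calls were kept in every alternative that gave a value; Pdgfd was not tested with the minimum of 50. Without 1 tumour at a time the changes ranged from −0.65 to −0.49 for Pdgfa, −3.48 to −2.96 for Pdgfd, 0.94 to 1.40 for Pdgfra and −6.27 to −5.72 for Pdgfrb. Limma voom also called Pdgfc, at 0.54.

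At the asymptomatic stage 1 member was called, but 3 by limma voom, 2 with the tumour code as a replicate block and 3 with that block and 3108D and 3109D exchanged. At the early stage 3 were called, 1 without 3108D and 3109D, and 1 to 4 without 1 tumour. At the late stage 3 were called, 1 with that stage's libraries alone, and 1 to 3 without 1 tumour. In both late interactions limma voom called 1 member where edgeR called 0. Between late and early glioma cells 0 were called, but 1 by DESeq2, 2 by limma voom and 0 to 2 without 1 tumour, and between late and asymptomatic glioma cells 1 by limma voom. In surrounding cells 2 were called by limma voom between late and early stages and 1 between late and asymptomatic stages, with 0 to 1 without 1 tumour in each. The causes were not tested. The share of all genes called is not given here for each of these settings, and it also differed between settings. These counts are therefore not read as results about the family. With the block, Pdgfd gained its call at the asymptomatic stage, at −2.85; with exchanged codes it was −2.83, Pdgfa gained a call there, at −0.53, and Pdgfc at the late stage, at 0.84. Those blocks changed no other call of a member.

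Library totals in place of TMM moved the median of all genes over all stages to 0.21 from 0.06, and the share of higher calls to 57.8%, against 47.6%. Over all genes, 45 of 16494 were called between late and early glioma cells, against 989 by DESeq2, 2613 by limma voom and 2912 of 16937 without 3057E. No called gene of the 6 pathway lists changed sign over all stages in any alternative. Counts of 0 to 23 reads in the glioma libraries limit what can be said of Pdgfd there.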
